A study of Homo sapiens with 6 samples.

Results

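The genes described here are 8 that code for sensors of foreign or misplaced nucleic acid, the proteins that pass their signal on, and the transcription factors at the end of the pathway. They are TLR3, DDX58 (now RIGI), IFIH1, MAVS, MB21D1 (now CGAS), TMEM173 (now STING1), IRF3 and IRF7. They were chosen by name, and every listed peak that touched a gene's hg19 span or the 5 kb on either side of it was taken, which gave 25 peaks of the 148837 in 4 lists. The lists come from chromatin immunoprecipitation followed by sequencing (ChIP-seq) in NCI-H69, called H69 here, an established small cell lung cancer (SCLC) line, and in H69M, a line derived from H69. Each line gave 1 library for acetylated histone H3 lysine 27 (H3K27ac, Abcam antibody ab4729), 1 for trimethylated lysine 27 (H3K27me3, Cell Signaling Technologies clone C36B1) and 1 input, with no treatment named in the labels beyond the derivation itself. The series as a whole asks which SCLC cells carry MHC class I and are immunogenic. With 1 library per group no difference between the lines has a replicate check, and no p-value was computed.

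H3K27ac is laid down at active promoters and enhancers, and H3K27me3 is written by Polycomb repressive complex 2 at silenced genes. TLR3 is a receptor in the endosome membrane that binds viral-type RNA duplexes. DDX58 codes for RIG-I and IFIH1 for MDA5, both helicases that detect viral-type RNA in the cytosol, and MAVS is the mitochondrial adaptor through which both signal. MB21D1 codes for cGAS, which binds DNA in the cytosol and makes the messenger cGAMP, and TMEM173 codes for STING, the receptor of cGAMP. All 3 routes lead to phosphorylation of IRF3 and IRF7, which switch on type I interferon genes. In many cell types IRF7, DDX58 and IFIH1 are themselves interferon-induced.

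Promoter sequences are given as background, for the genes whose sequence was available. RefSeq promoter sequence on GRCh38.p14 was at hand for 4 of the 8 genes, and the 250 bases before the start are printed 5′ to 3′ on the strand of the gene. All 4 are shown, and none was picked for its peaks. TMEM173, MB21D1, IRF3 and IRF7 had no sequence at hand, so the 4 form no contrast between starts that differed and starts that did not. Capitals mark matches, on either strand, to the core of the interferon-stimulated response element (GAAA, any 2 bases, GAAA), the STAT site TTCNNNGAA or the GC box GGGCGG.
IFIH1: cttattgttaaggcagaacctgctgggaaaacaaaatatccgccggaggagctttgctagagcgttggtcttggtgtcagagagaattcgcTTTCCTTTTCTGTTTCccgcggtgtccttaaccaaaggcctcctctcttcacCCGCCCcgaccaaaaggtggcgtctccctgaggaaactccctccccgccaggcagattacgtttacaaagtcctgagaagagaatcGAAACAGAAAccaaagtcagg
DDX58: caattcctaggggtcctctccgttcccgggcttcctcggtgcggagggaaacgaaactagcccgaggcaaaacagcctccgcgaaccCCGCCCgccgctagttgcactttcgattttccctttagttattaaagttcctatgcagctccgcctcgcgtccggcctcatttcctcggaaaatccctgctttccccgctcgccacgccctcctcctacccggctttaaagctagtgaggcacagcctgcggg
MAVS: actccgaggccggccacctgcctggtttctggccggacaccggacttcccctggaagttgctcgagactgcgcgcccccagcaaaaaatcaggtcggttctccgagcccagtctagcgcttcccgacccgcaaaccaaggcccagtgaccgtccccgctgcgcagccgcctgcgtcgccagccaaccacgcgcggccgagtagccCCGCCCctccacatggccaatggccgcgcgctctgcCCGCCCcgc
TLR3: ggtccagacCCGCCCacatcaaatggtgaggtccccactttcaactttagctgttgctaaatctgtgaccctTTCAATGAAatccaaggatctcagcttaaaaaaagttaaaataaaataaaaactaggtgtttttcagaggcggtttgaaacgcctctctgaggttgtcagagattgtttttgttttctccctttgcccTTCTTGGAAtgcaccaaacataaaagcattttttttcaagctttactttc
The IFIH1 promoter held 3 matches to the response element core, at 159 to 150, 153 to 144 and 21 to 12 bases before the start, the first pair overlapping, and 3.02% of 35116 promoters of this length held at least 1. TLR3 held 2 matches to the STAT site, at 178 to 170 and 50 to 42 bases before the start, against 6.57% of promoters with at least 1. A GC box was found in all 4 sequences, once in IFIH1, DDX58 and TLR3 and at 2 places in MAVS, and 42.6% of promoters held one. No match to AP-1 (TGANTCA, in 6.57% of promoters) or to the E-box CAGCTG (14%) was found in these windows. CG dinucleotides numbered 28 in MAVS, 22 in DDX58, 12 in IFIH1 and 3 in TLR3, beside a median of 11 over all promoters. These matches are letters in a window, not bound sites, and since the peaks are on hg19 they were not laid over the sequences.

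On chromosomes 1 to 22 and X, H69 had 38255 peaks of H3K27ac and 21638 of H3K27me3, and H69M had 51091 and 37853. The H69M H3K27ac peaks were also wider, with a median of 1149 bp against 966 bp, so a longer covered length was common there. The authors gave each peak a score whose definition is not stated. It starts at 50 and piles up at 3100 in the H3K27ac lists, and it is used here only to place a peak within its own list. Read depth is unknown. The lines were not checked against lineage markers, whose hg19 positions were not at hand.

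H3K27ac lay within 1000 bp of the start of 5 of the 8 genes in H69 (IFIH1, MAVS, TMEM173, IRF3 and IRF7) and of the same 5 and DDX58 in H69M. H3K27me3 was listed in the window of 1 gene, MB21D1, in both lines. No peak of either mark was listed for TLR3 in either line, and no gene window held listed peaks of both marks. How often other stretches of the genome hold both was not counted. With H3K27me3 in only 1 window, the absence of both together is not read as a trait of these genes. The genome was cut into tiles, far from genes as well as near them, to give a background. Of 2000 bp tiles, 3.62% held H3K27ac in H69 and 5.23% in H69M, and 1.25% and 1.85% held H3K27me3. Starts of other genes were not counted, so this background cannot tell the sensor genes from genes in general. Of tiles as long as the median gene window (31533 bp), 22.2% held H3K27ac in H69 and 28.4% in H69M. H3K27me3 was in 8.89% and 11.1% of these longer tiles, so 1 window of 8 is close to that background.

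**Figure D1:**
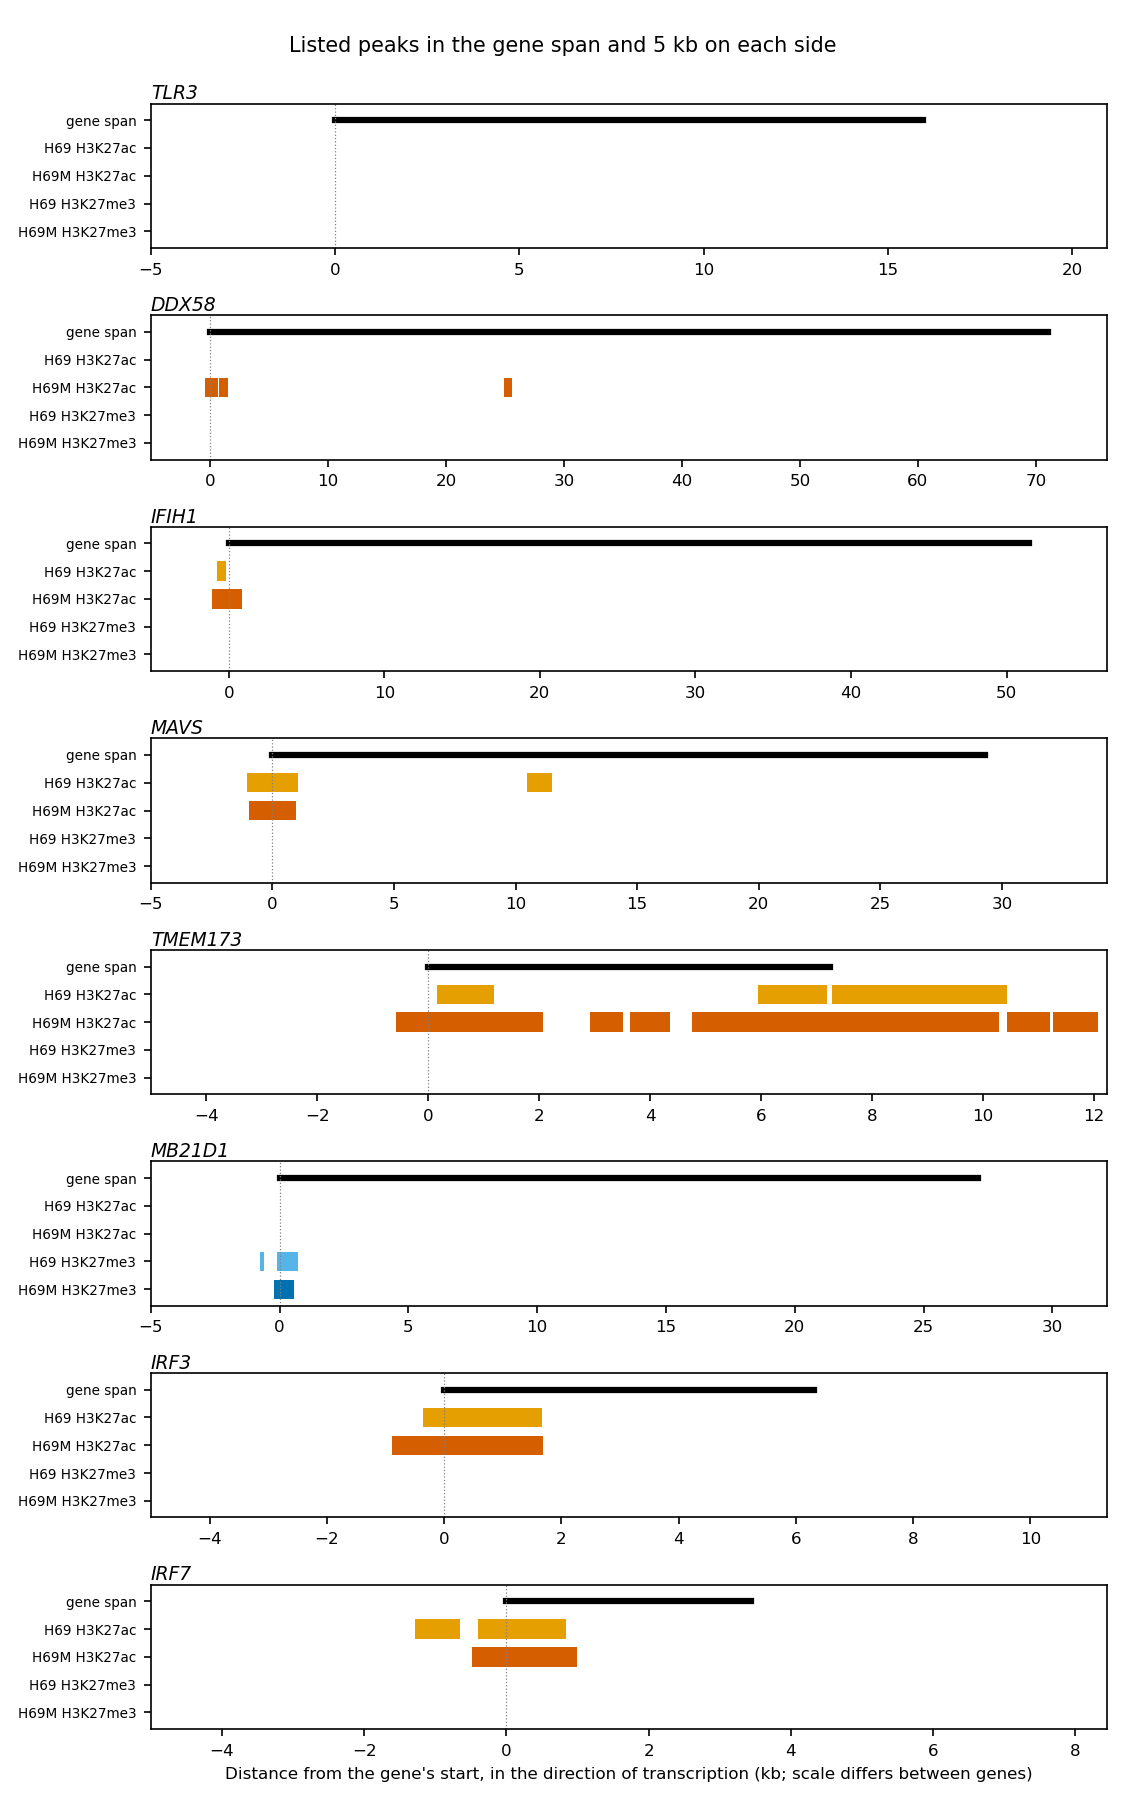
Position of every listed peak in the 8 gene windows, with distance from the gene's start on the horizontal axis (kb, in the direction of transcription, scale differing between genes), the gene span in black and 1 row for each mark and line. H3K27ac covers the start of MAVS, IRF3 and IRF7 in both lines and of DDX58, IFIH1 and TMEM173 only in H69M, H3K27me3 covers the start of MB21D1 in both lines, and the TLR3 panel is empty.

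At TLR3 (chr4:186990309-187006252, plus strand) none of the 4 libraries had a peak in the 25944 bp window. The nearest H3K27ac peak to its start was 403 kb upstream in H69 and 230 kb upstream in H69M, the farthest of the 8 genes in either line. The locus therefore had no listed peak of the active mark over a wide stretch in both lines. H3K27me3 was nearer. A peak at chr4:187025961-187026656 in H69 (696 bp, score 230.24) lay inside one at chr4:187025950-187026808 in H69M (859 bp, score 509.04), 35.7 and 35.6 kb downstream of the start and outside the window.

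At DDX58 (chr9:32455300-32526322, minus strand) H3K27ac was listed at 0 bp in H69 and covered 2446 bp in H69M, in 3 peaks. The H69M peak over the start, chr9:32525652-32526728, was 1077 bp wide, reached from 406 bp upstream to 670 bp downstream, and had a score of 362.03. It was a mid-ranking peak, with 58.2% of its list scoring lower. A weaker peak of 727 bp (score 74.12) followed 799 bp into the gene, and another of 642 bp (score 76.06) lay 24.9 kb into it. Long noncoding RNA genes overlap DDX58 in RefSeq, and the lists cannot tell to which gene a peak belongs. Neither of the weaker peaks was kept when the H69M list was limited to as many peaks as H69 has, which removed scores under 92.26, whereas the start peak was kept.

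The nearest H3K27ac in H69 lay 24.1 kb upstream of the DDX58 start, at chr9:32550390-32552920 (2531 bp, score 2342.03). H69M had a peak there too (3062 bp, score 3100), and both had one farther out, 1002 bp wide and 46.2 kb upstream in H69, 1200 bp wide and 46.1 kb upstream in H69M. Both flanking peaks were thus listed in both lines, and the peak over the DDX58 start in H69M alone. In H69M the flanking peaks scored 3100 and 604.25, above the 362.03 of the start peak. They are therefore no matched control for it. Among H69M H3K27ac peaks with at least the score of the DDX58 start peak, 16.8% had no overlapping peak in H69, against 48.4% of the whole H69M list. This cutoff was chosen after the peak was seen, so the shares describe the list and do not test the peak. No H3K27me3 peak lay within 50 kb of the gene in either line.

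At IFIH1 (chr2:163123589-163175039, minus strand) the window held 1 H3K27ac peak in each line. In H69 it was a weak peak of 565 bp at chr2:163175219-163175783, with a score of 64.11, which ended 180 bp short of the start on the upstream side. In H69M the peak at chr2:163174203-163176110 was 1908 bp wide with a score of 1549.75, and it covered the start from 1071 bp upstream to 836 bp downstream. The H69 peak lay wholly inside it, and the width ratio was 3.38, above 95.5% of the 26352 H69M peaks that overlap an H69 peak. The H69 peak had 12.2% of its list below it in score, and the H69M peak 72.6% of the H69M list limited to an equal number of peaks.

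The only other H3K27ac within 50 kb of IFIH1 was a shared peak upstream of the start, 974 bp wide at 25.3 kb in H69 and 1010 bp wide at 25.4 kb in H69M. The difference in length at the start was therefore not seen at the neighbouring peak. That peak scored 449.42 in H69 and 761.02 in H69M, while the H69 start peak scored 64.11. The peaks were thus not matched in score, and the contrast is no test. In RefSeq the next gene on that side is GCA, on the opposite strand and within 5 kb of IFIH1, and the lists cannot tell to which of them the start peak belongs. H3K27me3 was far away in both lines, 1240 kb from the start in H69 and 901 kb in H69M.

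MAVS (chr20:3827446-3856770, plus strand), the adaptor of both helicases, carried H3K27ac over its start in both lines. The peak was 2067 bp wide in H69 (chr20:3826410-3828476, score 2818.55) and 1928 bp in H69M (chr20:3826466-3828393, score 3009.39), and the H69M peak lay inside the H69 one. It was the highest scoring start peak of the 8 genes in each list. A second H69 peak of 1033 bp (score 213.46) lay 10.5 kb into the gene and had no counterpart in H69M. Among H69 peaks with at least its score, 4.73% had no H69M counterpart, against 22.5% of the whole H69 list. That cutoff too was chosen after the peak was seen, and the shares are no test of it. Over the window H3K27ac thus covered 3100 bp in H69 and 1928 bp in H69M, a ratio of 0.622, with the start itself covered in both.

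MB21D1 (chr6:74134856-74161977, minus strand), the DNA sensor gene, was the one member with H3K27me3. In H69 a peak of 819 bp with a score of 198.25 covered the start (chr6:74161266-74162084), and a second of 151 bp (score 69.22) lay 615 bp upstream. In H69M a single peak of 772 bp with a score of 430.43 covered the start (chr6:74161409-74162180) and shared 676 bp with the larger H69 peak. The peaks over the start ranked high in score and width, but only within their own lists. Listed H3K27me3 peaks were short, and the middle values were 185 bp (H69) and 156 bp (H69M). These ranks therefore do not show that the mark was broad at MB21D1. Of the H69 list 97.1% scored lower and 98.9% were narrower, and of the H69M list 98.5% scored lower and 98.3% were narrower. H3K27me3 peaks with at least these scores were usually found in both lines. Of them, 4.42% in H69 and 12.5% in H69M had no counterpart, against 67.4% and 81.1% of the whole lists. The cutoffs were chosen after the MB21D1 peaks were seen.

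No H3K27ac was listed in the MB21D1 window in either line. The nearest lay 8.66 kb upstream of the start in H69 (2090 bp, score 1435.16) and 8.65 kb upstream in H69M (1847 bp, score 2673.31), on the side where RefSeq places MTO1. The covered length of H3K27me3 in the window was 970 bp in H69 and 772 bp in H69M. The start thus had a listed H3K27me3 peak and no listed H3K27ac peak in both lines.

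TMEM173 (chr5:138855113-138862343, minus strand), the receptor of the cGAS product, had the most H3K27ac of the 8 genes in both lines. H3K27ac covered 5418 bp of its 17231 bp window in H69 (31.4%) and 11074 bp in H69M (64.3%), a ratio of 2.04. With 500 bp added to each value the log2 ratio was 0.97, and it fell to 0.55 under equal numbers of peaks. The mark lay at both ends of the gene. At the start H69 had a peak of 1024 bp (chr5:138861164-138862187, score 137.3) that began 156 bp inside the gene, and H69M had one of 2646 bp (chr5:138860281-138862926, score 1185.54) that reached 583 bp upstream and 2062 bp downstream. The width ratio was 2.58, above 90.9% of shared H69M peaks. In score 39.8% of the H69 list lay below the H69 start peak, and 67.9% of the equally long H69M list lay below the H69M one.

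At the other end of TMEM173 the mark was stronger in each list than at the start. H69 had peaks of 1238 bp (score 748.03) and 3156 bp (score 796.66), at chr5:138855164-138856401 and chr5:138851915-138855070, and H69M had 1 peak of 5535 bp over both (chr5:138852055-138857589, score 3100). Of the H69M list 98.7% were narrower. Further H69M peaks of 580, 720, 778 and 815 bp, with scores of 56.36 to 92.08, lay beside it. These 4 were not kept under equal numbers of peaks, and of all H69M H3K27ac peaks with a score under 100, 79.7% had no H69 counterpart. In RefSeq SMIM33 lies within 5 kb of this end, and the lists cannot tell to which of them this peak belongs.

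The surroundings of TMEM173 held more listed peaks in H69M. Within 50 kb of the gene, its window included, 4 H3K27ac peaks were listed in H69 and 12 in H69M. The window itself held 3 and 6 of them. Under equal numbers of peaks, an alternative added after the data were seen, the counts within 50 kb were 4 and 6. The covered lengths were then 6608 and 13865 bp. Outside the window, 5 of the H69M peaks had no H69 counterpart, with scores of 50.79 to 188.35, and only the strongest had one. Such peaks were common, at 48.4% of the whole H69M list and 79.7% of its peaks scoring under 100. The flanking peaks were not tested against these shares. The strongest flanking peak, 34.8 kb upstream, was listed in both lines, with a width of 1190 bp in H69 and of 1301 bp in H69M. A weak H3K27me3 peak of 148 bp (score 77.09) 16.0 kb upstream of the start in H69 had no counterpart in H69M, as for most peaks of that list.

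**Figure D2:**
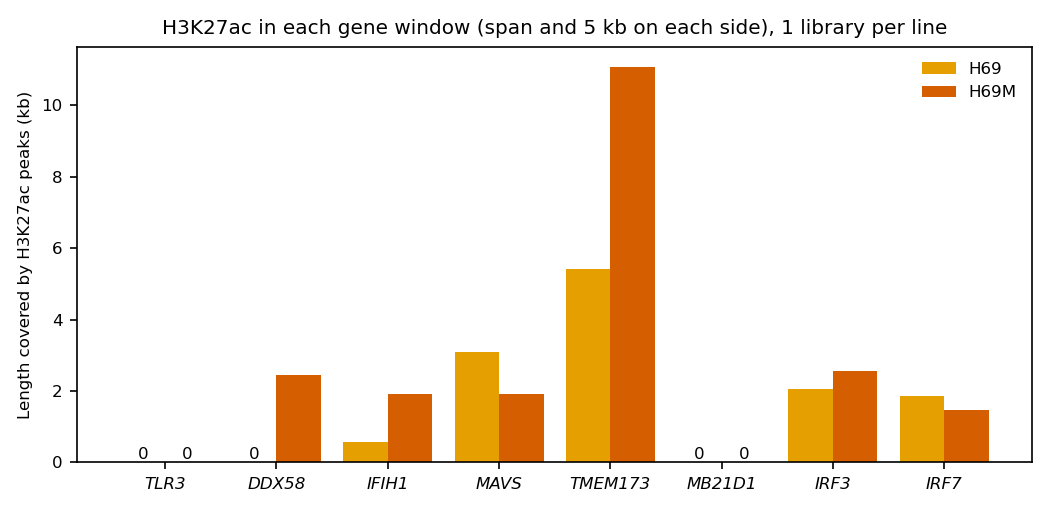
Length covered by H3K27ac peaks in each gene window (vertical axis, kb), 1 bar per line, each from 1 library. TMEM173 is the highest in both lines (5418 bp in H69 and 11074 bp in H69M), DDX58 is at 0 in H69, MAVS and IRF7 are lower in H69M, and TLR3 and MB21D1 are at 0 in both.

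IRF3 (chr19:50162826-50169132, minus strand) carried 1 H3K27ac peak over its start in each line. It was 2042 bp wide in H69 (chr19:50167454-50169495, score 938.2) and 2572 bp in H69M (chr19:50167443-50170014, score 1510.47). It reached 1678 and 1689 bp downstream of the start in H69 and H69M, and farther upstream in H69M, to 882 bp against 363 bp. In score 74.4% of the H69 list and 72.2% of the equally long H69M list lay below it. BCL2L12 overlaps IRF3 in RefSeq on the opposite strand, and the peak cannot be assigned to one of them.

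IRF7 (chr11:612555-615999, minus strand) also carried H3K27ac over its start in both lines. The peak was 1226 bp wide in H69 (chr11:615169-616394, score 807.29) and 1470 bp in H69M (chr11:615011-616480, score 1421.46), with the H69 peak inside the H69M one. In score 72.2% of the H69 list and 71.2% of the equally long H69M list lay below it, much as for IRF3. CDHR5 lies within 5 kb of IRF7 on the start side in RefSeq, and the lists cannot tell to which gene the peaks belong. A second H69 peak of 635 bp 654 bp upstream had a score of 52.74, near the bottom of its list, and no H69M counterpart. With it the window was covered over 1861 bp in H69 and 1470 bp in H69M, a ratio of 0.790. The lower value in H69M rests on this weak second peak of H69. The starts of both transcription factor genes thus carried H3K27ac in both lines, with width ratios of 1.26 for IRF3 and 1.20 for IRF7 beside a median of 1.23 over all shared H69M peaks.

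Among the 5 genes with a shared H3K27ac peak at the start, 4 had the wider one in H69M, and for 2 of them, IFIH1 and TMEM173, the ratio was 1.5 or more. Over all shared H69M peaks 77.1% were wider in H69M and 30.9% by 1.5 or more, so these counts are near the background, and the ratios of IFIH1 and TMEM173 are described without a test. Of the 13 H3K27ac peaks of H69M in the windows 6 had no H69 counterpart (3 in DDX58 and 3 in TMEM173), against 48.4% of the H69M list. Of the 9 of H69, 2 had no H69M counterpart (in MAVS and IRF7), against 22.5%.

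By covered length, with 500 bp added to each value, 2 of the 6 windows with H3K27ac were 2-fold or more higher in H69M (DDX58 and IFIH1) and none was 2-fold lower. Over 30012 tiles with H3K27ac, 35.9% were 2-fold or more higher and 8.64% lower. The median log2 ratio was 0.62 over the 6 windows and 0.47 over the tiles. The share of windows past 2-fold was thus near that of the tiles. IFIH1 had a log2 ratio of 1.18, TMEM173 0.97, IRF3 0.27, IRF7 -0.26 and MAVS -0.57. The value for DDX58 depends on the added length, since it was listed at 0 in H69.

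**Figure D3:**
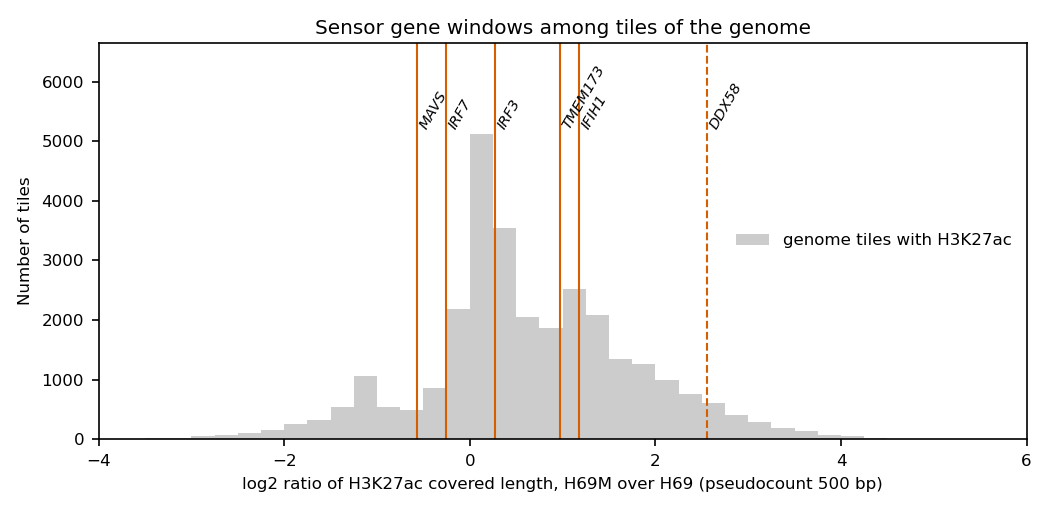
Log2 ratio of H3K27ac covered length, H69M over H69 (horizontal axis, 500 bp added to each value), for the 6 gene windows with H3K27ac (lines) and the number of genome tiles at each ratio (grey bars). The windows lie from -0.57 for MAVS to 1.18 for IFIH1, within the part of the range where most tiles lie, and DDX58 (dashed) is higher at a value set by the added length.

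The genes also differed in how far the nearest peak lay from the start. In H69M the start base was covered by H3K27ac in 6 genes and in H69 in 3 (MAVS, IRF3 and IRF7). Within 1000 bp of the start the counts were 6 and 5. On chromosomes 1 to 22 and X, H3K27ac peaks covered 76.8 Mb in H69M and 48.2 Mb in H69. How often the starts of other genes were covered was not counted, so these counts have no background beside them. For IFIH1 and TMEM173 the H69 peak stopped 180 and 156 bp away, and for DDX58 the nearest was 24.1 kb away. Apart from MB21D1, the nearest H3K27me3 peak was 16.0 kb or more from the start in H69 and 28.5 kb or more in H69M. The 3 starts covered by H3K27ac in H69M alone had no listed H3K27me3 peak on them in H69. Since read depth is unknown, an unlisted start cannot be taken as free of the mark. Just outside the 5 kb limit lay the peaks 5.95 kb upstream of IRF3 (862 bp in H69 and 854 bp in H69M), and just inside it the 815 bp peak of H69M beside TMEM173.

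**Figure D4:**
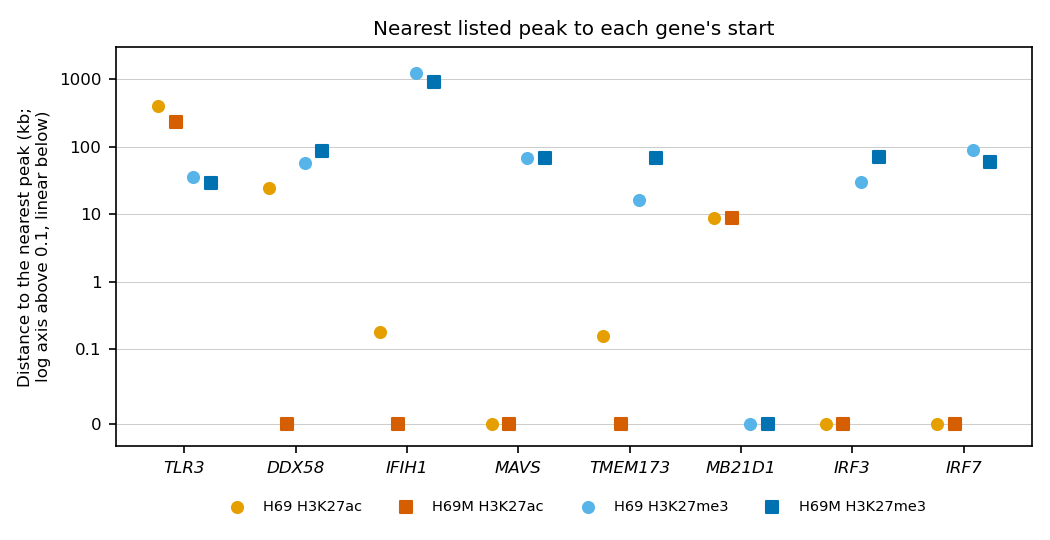
Distance from each gene's start to the nearest listed peak (vertical axis, kb, logarithmic above 0.1 and linear below), for each mark and line. Points at 0 are peaks that cover the start: H3K27ac in 3 genes in H69 and 6 in H69M, and H3K27me3 in MB21D1 in both lines. Starts of other genes were not counted.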

How the data were processed

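ChIP-seq peak lists of 4 antibody libraries were used, without the 2 inputs. Per the labels' protocols, fixed and sonicated chromatin was precipitated and sequenced from paired ends on a NextSeq500. Bowtie2 and SAMtools 0.1.19 and the build hg19 are named in the submitters' processing notes. Peak names carry the word MACS, with version, settings and control not stated in any source used here. The deposited value per peak is a score of undefined scale, without read counts, so depth is unknown.

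Gene spans were given on hg19. Their lengths were within 1.44% of RefSeq on GRCh38.p14 for 6 genes, while TLR3 was shorter by 2974 bp and MB21D1 by 1465 bp. No hg19 annotation was at hand, so exons and introns, the other pathway genes listed and lineage markers were not analysed here. Neighbouring genes are RefSeq names only. Coordinates are 1-based. All 8 members are named. Per gene, peaks were counted and their covered length summed in the span and 5000 bp on each side. A start counted as marked with a peak within 1000 bp, and a peak as shared with an overlap of 1 bp. Tiles did not overlap and ran to the last peak of each chromosome. The members and lists were chosen with earlier results of these data known, and the scores under equal numbers of peaks and the subsets of peaks by a member's score were chosen after its values were seen. Overlap, length and tile counts were tested on simulated data. Python 3.11.15, pandas 2.3.3 and numpy 2.4.6 were used.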

Additional observations from a re-analysis of the deposited data

How the results depend on the processing

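Each list comes from 1 library of unknown depth, so a difference in depth or enrichment between the libraries cannot be told apart from a difference in the marks. The genes with H3K27ac at the start in H69 fell from 5 to 3 when the peak had to cover the start base, without IFIH1 and TMEM173. With a margin of 50000 bp, H3K27me3 was listed for 4 genes in H69 and 2 in H69M in place of 1 and 1. H3K27ac peaks without a counterpart were 1 in place of 2 in H69, either with no H69M peak within 1000 bp or with scores of 100 or more, and in H69M 2 in place of 6 with scores of 100 or more and 1 (the DDX58 start peak) under equal numbers of peaks. The H69M count rose to 9 when the overlap had to reach 50% of the peak, and was 5 with no H69 peak within 1000 bp. The 2 genes with H3K27ac 2-fold or more higher in H69M became 1 with a margin of 50000 bp (TMEM173) and 1 with a pseudocount of 1000 bp (DDX58). TMEM173 joined DDX58 and IFIH1, making 3, with no margin, with peaks joined within 1000 bp, at 1.5-fold and with a pseudocount of 100 bp. Under equal numbers of peaks DDX58 and IFIH1 stayed past 2-fold, with log2 ratios of 1.66 and 1.18. That of TMEM173 was 0.55 in place of 0.97, both under equal numbers of peaks and with scores of 100 or more. With scores of 100 or more the H69 peak of IFIH1 was lost, its log2 ratio was 2.27 in place of 1.18, and 4 starts had H3K27ac in H69. With a margin of 50000 bp the log2 ratios of DDX58 and IFIH1 were 0.84 and 0.75. The pseudocount set DDX58 between 1.78 (1000 bp) and 4.67 (100 bp). The log2 ratio of MAVS was 0.22 with a margin of 50000 bp in place of -0.57. That of IRF7 was 0.19 with scores of 100 or more and 0.16 with no margin, in place of -0.26. No ratio past 2-fold changed sign under the alternatives run. No paired analysis was possible because each group holds 1 sample, and for the same reason no library could be left out.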
